A study of Mus musculus with 4 samples.

Results

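The genes described here control the passage from G1 into S phase. They are the D cyclins Ccnd1, Ccnd2 and Ccnd3, their kinases Cdk4 and Cdk6, the retinoblastoma gene Rb1, and the kinase inhibitors Cdkn1a, Cdkn2a, Cdkn2b and Cdkn2c. A gene was measured where a probe set of the array carried its symbol and no other. This held for 9 of the 10 genes, each with 1 probe set, among 19938 genes measured in all. The probe set of Cdkn1a, which encodes the p53-induced inhibitor p21, is annotated to a second gene as well, so Cdkn1a is not analysed here.

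Total RNA was hybridised to 4 one-colour Affymetrix arrays, 1 for each of 4 cultures. The lines 178B5 and 492B4 are induced pluripotent stem (iPS) cells, made by reprogramming, on a mixed genetic background of DBA/2, C57BL/6 and 129S4. Line v6.5 consists of embryonic stem (ES) cells and is an F1 of 129 and C57BL/6, and the mouse embryonic fibroblasts (MEF) have the same mixed background as the iPS lines. All cultures received serum, and the pluripotent lines grew on mitomycin-C-treated SNL feeder cells, while the fibroblasts grew without them. The labels describe no step that removed feeder cells before extraction, no passage number and no repeat culture. Because ES had its own strain background, strain and cell origin cannot be told apart where it is compared.

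In a cell that answers to mitogens, D cyclins bind CDK4 or CDK6, and the kinases phosphorylate the Rb protein, which then releases E2F transcription factors to switch on S-phase genes. Inhibitors of the INK4 family, encoded by Cdkn2a, Cdkn2b, Cdkn2c and Cdkn2d, bind CDK4 and CDK6 and keep D cyclins away. Mouse ES cells are known for a short G1 phase with little D cyclin and with cyclin E and CDK2 activity through the cycle, whereas fibroblasts in culture build up INK4 inhibitors as they age.

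Promoters are shown for Cdkn2a, Cdkn2b and Cdkn2c, the INK4 genes that fell in the pluripotent lines, and for Cdk4, which was not called in any comparison. Each runs from 250 bases before to 50 bases after a RefSeq start site, 5′ to 3′ on the strand of the gene, in build GRCm38.p6. Capitals mark matches, on either strand, to an E2F motif (TTTCCCGC, TTTCGCGC, TTTGCCGC or TTTGGCGC), a cyclic AMP response element (CRE, TGACGTCA), an AP-1 motif (TGANTCA), an E-box (CACGTG) or a GC box (GGGCGG). These INK4 genes, Cdkn2a, Cdkn2b and Cdkn2c, lie on chromosome 4 on the minus strand. Cdkn2a has separate start sites for its products, the upstream one for p19Arf, which stabilises p53, and the downstream one for p16Ink4a.
Cdkn2b, chr4:89310983-89311282: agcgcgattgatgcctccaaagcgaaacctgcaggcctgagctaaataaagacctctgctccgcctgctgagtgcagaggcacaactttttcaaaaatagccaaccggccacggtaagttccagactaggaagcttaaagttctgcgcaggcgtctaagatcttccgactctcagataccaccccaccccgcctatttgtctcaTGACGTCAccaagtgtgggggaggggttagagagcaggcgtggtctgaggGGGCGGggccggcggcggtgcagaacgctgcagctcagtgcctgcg
Cdkn2a upstream start, chr4:89294570-89294869: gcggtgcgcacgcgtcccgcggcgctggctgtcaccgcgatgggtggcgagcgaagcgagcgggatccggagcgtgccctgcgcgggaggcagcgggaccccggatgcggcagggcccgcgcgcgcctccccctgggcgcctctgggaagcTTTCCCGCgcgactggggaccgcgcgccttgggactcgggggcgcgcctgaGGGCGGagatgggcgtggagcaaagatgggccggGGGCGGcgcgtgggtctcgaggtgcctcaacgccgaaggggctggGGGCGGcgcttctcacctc
Cdkn2a downstream start, chr4:89282143-89282442: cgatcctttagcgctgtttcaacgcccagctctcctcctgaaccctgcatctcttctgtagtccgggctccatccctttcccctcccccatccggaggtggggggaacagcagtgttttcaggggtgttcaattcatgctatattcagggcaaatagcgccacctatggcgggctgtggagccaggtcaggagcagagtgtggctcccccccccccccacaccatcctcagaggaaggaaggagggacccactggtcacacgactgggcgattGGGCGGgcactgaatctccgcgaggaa
Cdkn2c upstream start, chr4:109666707-109667006: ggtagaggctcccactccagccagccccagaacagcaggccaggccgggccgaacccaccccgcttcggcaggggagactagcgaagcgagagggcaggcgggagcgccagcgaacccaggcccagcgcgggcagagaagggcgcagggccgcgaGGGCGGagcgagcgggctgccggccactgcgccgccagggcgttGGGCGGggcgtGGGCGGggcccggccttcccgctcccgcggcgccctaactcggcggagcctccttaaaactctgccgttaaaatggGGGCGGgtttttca
Cdk4, plus strand, chr10:127063285-127063584: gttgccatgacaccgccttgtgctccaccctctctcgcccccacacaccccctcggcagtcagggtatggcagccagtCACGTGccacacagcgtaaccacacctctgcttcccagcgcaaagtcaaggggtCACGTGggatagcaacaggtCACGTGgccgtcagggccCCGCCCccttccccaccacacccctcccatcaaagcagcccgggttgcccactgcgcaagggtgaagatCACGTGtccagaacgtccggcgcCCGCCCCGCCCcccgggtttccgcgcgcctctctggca

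The promoters of these INK4 genes did not share one set of these motifs. Cdkn2b held 1 CRE, 46 bases before its start, a motif present in 1.79% of the 32851 promoters of this length. The upstream Cdkn2a promoter held 1 E2F motif, 99 bases before its start, against 2.26% of all promoters. A GC box, which 35.7% of all promoters hold, lay in the 4 promoters printed for Cdkn2a, Cdkn2b and Cdkn2c. The downstream Cdkn2c promoter, not printed, held 0 GC boxes and 1 E-box. The Cdk4 promoter held 4 E-boxes, the core motif bound by Myc and its partners. An E-box was present in 7.15% of all promoters, and 8 of the 32851 had 4 or more. Across the 11 promoters found for 7 of the 10 genes, no AP-1 motif was found (7.81% of all promoters), and no 2 different motifs overlapped. A match is a run of letters, not a measured binding site.

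All values below are on a log2 scale, with the base taken as 2. In the deposited table each probe set is centred on its median over the 4 arrays, so a value of 0 is that median, and only differences between arrays carry meaning. Differences from MEF are the mean of the 3 pluripotent lines minus the MEF array, and their SD is over the 3 lines. Genes were tested with limma over all 19938 genes with Benjamini-Hochberg adjustment and called at an adjusted p under 0.05 and at least 1 log2. P-values measure the spread between these arrays only, with the lone MEF array assumed to vary like the lines. An exact permutation test of 3 arrays against 1 cannot go below p = 0.25.

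The labelled cell types were checked first. All 12 pluripotency markers rose in the lines, with a median difference of 5.55 log2, Pou5f1 at 6.30 log2 and Sox2 at 6.18 log2. All 14 measured fibroblast markers were lower in every line than in MEF, with a median of -3.70 log2, and 8 of them were called. The number called was 2 without iPS 178B5, 4 without iPS 492B4 and 14 without ES. Macrophage markers had 0 of 9 called by limma, with 6 at an unadjusted p under 0.05. Primitive endoderm markers had 0 of 9 called, with 1 at an unadjusted p under 0.05, and 5 were called higher without ES. Trophoblast markers had 2 of 6 called higher and 1 lower, beside 7.9% and 9.71% of all genes. These were Tfap2c at 3.33 log2, Hand1 at 1.34 log2 and Gata3 at -1.76 log2. Over all genes 1576 were called higher and 1936 lower, and 1102 higher and 2920 lower with arrays centred on 12 reference genes. The median difference over all genes was -0.10 log2 as deposited and -0.38 log2 with that centring.

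Against MEF, 4 of the 9 measured genes fell in the pluripotent lines, and none of the 9 mean differences was above 0, though those of Ccnd3 and Rb1 were with equal array medians. They were the INK4 genes Cdkn2a, Cdkn2b and Cdkn2c and the D cyclin gene Ccnd2, with differences between -2.74 and -1.72 log2. Of all genes 9.71% were called lower. The median difference over the 9 genes was -1.52 log2. Every line was below MEF for 6 of the 9 genes, and for 47.7% of all genes. The kinase genes Cdk4 and Cdk6, the D cyclin genes Ccnd1 and Ccnd3, and Rb1 were not called. Without iPS 178B5 the number called was 2 (Cdkn2b and Cdkn2c), without iPS 492B4 it was 3, and without ES it was 6, with Ccnd1 and Cdk6 added. Over all 19938 genes, 744 were called lower without iPS 178B5, 1739 without iPS 492B4 and 2235 without ES, so the count of all genes moved alike. In this whole-culture RNA, fewer cells with a transcript and less transcript per cell cannot be told apart.

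**Figure D1:**
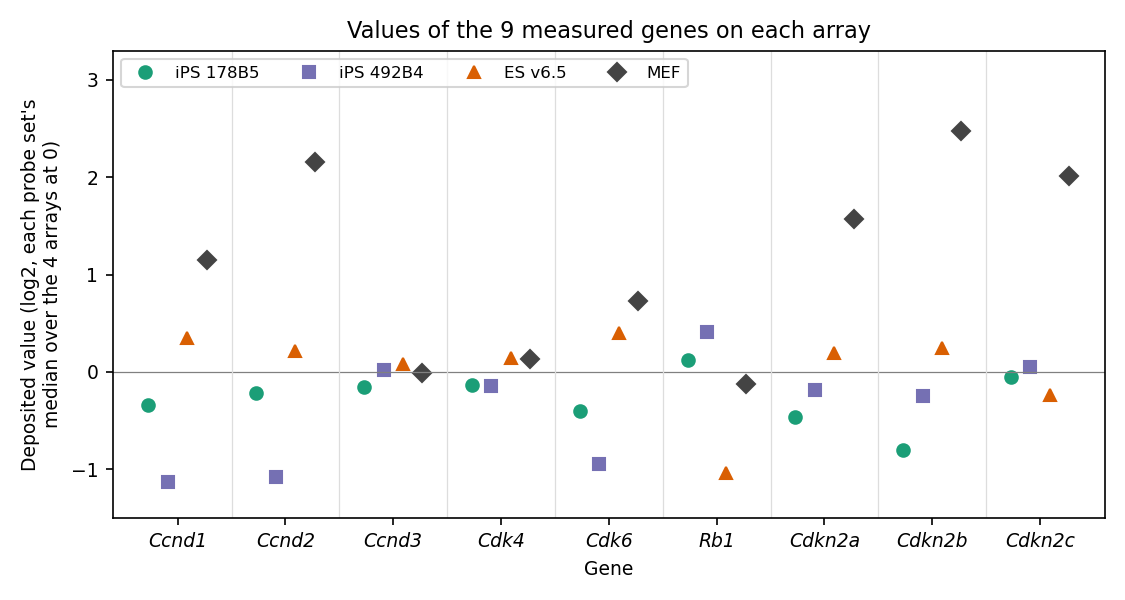
Deposited log2 values of the 9 measured genes, with the arrays of iPS 178B5, iPS 492B4, ES v6.5 and MEF from left to right within each gene and 1 point per array. MEF lies highest for Ccnd1, Ccnd2, Cdk6, Cdkn2a, Cdkn2b and Cdkn2c, while Ccnd3 and Cdk4 span under 0.3 log2 and ES lies lowest for Rb1.

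Cdkn2b encodes p15Ink4b, an inhibitor that TGF-beta is known to induce. Its value was -0.80 on iPS 178B5, -0.25 on iPS 492B4 and 0.25 on ES, against 2.47 on MEF. The MEF array stood more than 2 log2 above each line, and iPS 178B5 was lowest. Cdkn2b fell by 2.74 log2 (SD 0.52, n = 3 lines; limma adjusted p = 0.0180), or 6.68-fold, with a 95% interval from -3.89 to -1.59 log2. It remained called without each line in turn, with adjusted p of 0.0429 without iPS 178B5, 0.0463 without iPS 492B4 and 0.00546 without ES. Of all genes 1.91% had a difference as low or lower.

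Cdkn2a is the next protein-coding gene to Cdkn2b on chromosome 4. It stood at -0.46 on iPS 178B5, -0.19 on iPS 492B4 and 0.19 on ES, against 1.57 on MEF. The order of the arrays was the same as for Cdkn2b, with the lines apart from MEF by at least 1.38 log2. Cdkn2a fell by 1.72 log2 (SD 0.33, n = 3 lines; limma adjusted p = 0.0205), with a 95% interval from -2.49 to -0.95 log2. The call was lost without iPS 178B5 (-1.57 log2, adjusted p = 0.0599) and without iPS 492B4 (-1.70 log2, adjusted p = 0.0532). Its probe set is annotated to both RefSeq transcripts, so p16Ink4a and p19Arf messages cannot be told apart.

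Cdkn2c encodes p18Ink4c. It stood at -0.05 on iPS 178B5, 0.05 on iPS 492B4 and -0.24 on ES, against 2.02 on MEF. The 3 lines lay within 0.3 log2 of each other, the tightest of the called genes in this set, and ES was lowest. Cdkn2c fell by 2.10 log2 (SD 0.15, n = 3 lines; limma adjusted p = 0.00625), or 4.28-fold, with a 95% interval from -2.57 to -1.63 log2. It remained called without each line, with adjusted p of 0.0418 without iPS 178B5, 0.0197 without iPS 492B4 and 0.00356 without ES.

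The other CDK inhibitors differed little between the mean of the lines and MEF, though Cdkn1c spanned 0.56 log2 among the lines, with ES highest. Of Cdkn1b, Cdkn1c, Cdkn2d and Cdkn3, limma called 0 of 4, with 0 at an unadjusted p under 0.05 and differences from MEF between -0.21 and 0.05 log2. Cdkn1b encodes p27 and Cdkn1c p57, inhibitors of the CIP/KIP family, and Cdkn2d encodes the INK4 protein p19Ink4d. Unlike Cdkn2a, Cdkn2b and Cdkn2c, Cdkn2d was not called. Whether it differed from them was not tested.

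Among the D cyclins, Ccnd2 stood at -0.21 on iPS 178B5, -1.08 on iPS 492B4 and 0.21 on ES, against 2.15 on MEF. MEF was highest and iPS 492B4 lowest. Ccnd2 fell by 2.51 log2 (SD 0.66, n = 3 lines; limma adjusted p = 0.0357), or 5.71-fold, with a 95% interval from -3.94 to -1.09 log2. The call was lost without iPS 178B5 (-2.59 log2, adjusted p = 0.0926). Of all genes 2.36% had a difference as low or lower.

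Ccnd1 stood at -0.34 on iPS 178B5, -1.13 on iPS 492B4 and 0.34 on ES, against 1.15 on MEF. Every line was below MEF, but the lines spread over 1.47 log2 among themselves. The difference was -1.52 log2 (SD 0.74, n = 3 lines; limma adjusted p = 0.143), with a 95% interval from -3.10 to 0.06 log2, and Ccnd1 was not called. Without ES it was called (-1.88 log2, adjusted p = 0.0268).

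Ccnd3 stood at -0.15 on iPS 178B5, 0.02 on iPS 492B4 and 0.08 on ES, against -0.02 on MEF. The MEF array lay inside the range of the lines. The difference was -0.0051 log2 (SD 0.12, n = 3 lines; limma adjusted p = 0.986), with a 95% interval from -0.44 to 0.43 log2, so a difference of the size seen for Ccnd2 lies outside the interval. D cyclins are related in sequence, and cross-hybridisation between them was not tested.

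Neither kinase gene was called, and whether they differed from each other was not tested. Cdk6 stood at -0.40 on iPS 178B5, -0.94 on iPS 492B4 and 0.40 on ES, against 0.73 on MEF, so that ES lay 0.33 log2 below MEF and the iPS lines more than 1 log2 below it. Its difference was -1.04 log2 (SD 0.68, n = 3 lines; limma adjusted p = 0.244), with a 95% interval from -2.50 to 0.41 log2, and it was called without ES (-1.40 log2, adjusted p = 0.0269). Cdk4 stood at -0.13 on iPS 178B5, -0.14 on iPS 492B4 and 0.14 on ES, against 0.13 on MEF. The ES and MEF arrays were level to within 0.0089 log2. The difference of Cdk4 was -0.18 log2 (SD 0.16, n = 3 lines; limma adjusted p = 0.536), with a 95% interval from -0.66 to 0.31 log2.

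Rb1 encodes the pocket protein that the kinases phosphorylate. It stood at 0.12 on iPS 178B5, 0.41 on iPS 492B4 and -1.04 on ES, against -0.12 on MEF. Both iPS lines were above MEF and ES was below it. Over the 3 lines the difference was -0.050 log2 (SD 0.77, n = 3 lines; limma adjusted p = 0.964), and its 95% interval ran from -1.69 to 1.59 log2, wide enough to hold a change in either direction.

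**Figure D2:**
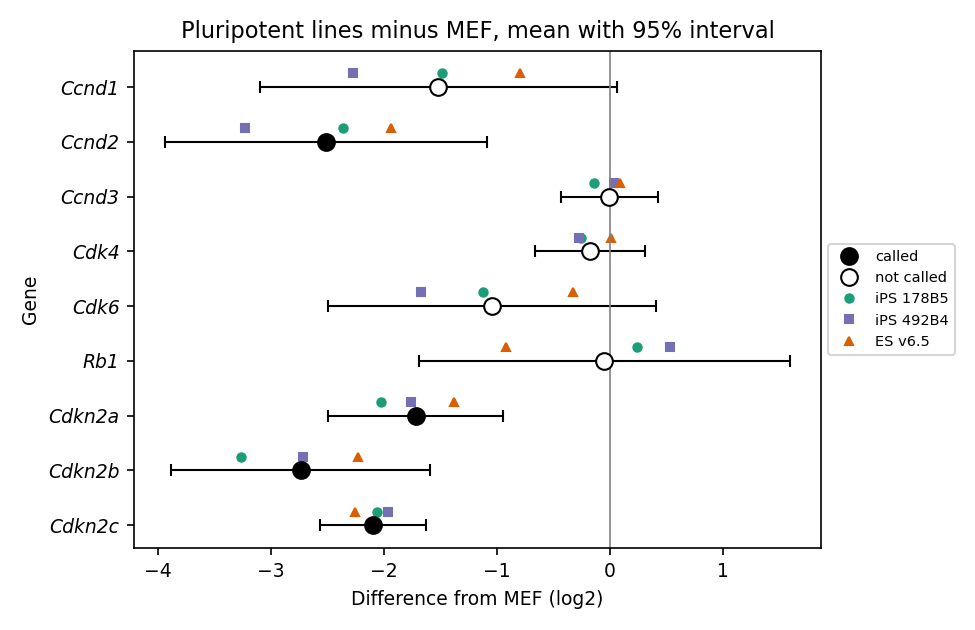
Differences from MEF in log2 for the 9 measured genes, with large circles for the mean of the 3 pluripotent lines, bars for limma's 95% interval and small symbols for each line. Filled circles mark Ccnd2, Cdkn2a, Cdkn2b and Cdkn2c, which were called, while the intervals of the other genes cross 0.

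With iPS and ES kept apart, Cdkn2a, Cdkn2b and Cdkn2c were called in both comparisons with MEF, which share the MEF array. In iPS cells 6 of the 9 genes fell, beside 11.2% of all genes called lower. In ES cells 3 of the 9 fell, beside 10.9% of all genes. The spread in this fit comes from the 2 iPS lines alone (1 residual degree of freedom), and the single ES and MEF arrays are taken to vary to the same extent. The iPS minus MEF values are the same as those given above without ES, and are not a separate result.

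Cdkn2b was -3.00 log2 in iPS minus MEF (limma adjusted p = 0.00546) and -2.23 log2 in ES minus MEF (adjusted p = 0.0171). Cdkn2a was -1.89 log2 in iPS minus MEF (adjusted p = 0.00589) and -1.38 log2 in ES minus MEF (adjusted p = 0.0193). Cdkn2c was -2.02 log2 in iPS minus MEF (adjusted p = 0.00356) and -2.26 log2 in ES minus MEF (adjusted p = 0.00693). For these 3 INK4 genes both kinds of pluripotent cell passed the test, and Cdkn2d, the other INK4 gene, passed in neither.

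Ccnd1, Ccnd2 and Cdk6 passed in iPS cells and not in ES cells. Ccnd2 was -2.80 log2 in iPS minus MEF (adjusted p = 0.0131) and -1.94 log2 in ES minus MEF (adjusted p = 0.0515). The ES difference was called with each array's median set equal (-1.89 log2, adjusted p = 0.0440) and with reference gene centring (-2.22 log2, adjusted p = 0.0259). Ccnd1 was -1.88 log2 in iPS minus MEF (adjusted p = 0.0268) and -0.80 log2 in ES minus MEF (adjusted p = 0.264). Cdk6 was -1.40 log2 in iPS minus MEF (adjusted p = 0.0269) and -0.33 log2 in ES minus MEF (adjusted p = 0.536). Rb1 was 0.39 log2 in iPS minus MEF (adjusted p = 0.188). In ES minus MEF Rb1 was -0.92 log2 (adjusted p = 0.0481), under the fold minimum, and it was called with reference gene centring (-1.20 log2, adjusted p = 0.0177).

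The direct test of iPS against ES called 0 genes of all 19938 (0%) by limma, with 3079 at an unadjusted p under 0.05. With 1 residual degree of freedom this count does not show that iPS and ES cells are alike. With equal array medians it called 44 genes and with reference gene centring 55, and none of the 9 genes was among them. The iPS lines were below ES for 7 of the 9 genes, with both iPS lines below it in each case. Over all genes ES was above both iPS lines for 47.7%. Ccnd1 was -1.08 log2 in iPS minus ES (95% interval -2.10 to -0.07, adjusted p = 0.310), and Cdk6 was -1.07 log2 (95% interval -1.83 to -0.31, adjusted p = 0.241). Ccnd2 was -0.86 log2 (95% interval -1.97 to 0.25, adjusted p = 0.405). The difference between iPS and ES cells in these cyclins and kinases was thus not past the threshold after adjustment, and the intervals allow differences of more than 1 log2.

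Rb1 ran the other way and was 1.31 log2 in iPS minus ES (95% interval 0.79 to 1.82, adjusted p = 0.138). Of all genes 1.52% had an iPS minus ES difference of this size or more, in either direction. Cdkn2b was -0.77 log2 (95% interval -1.53 to -0.0024, adjusted p = 0.323), Cdkn2a -0.52 log2 (adjusted p = 0.318) and Cdkn2c 0.24 log2 (adjusted p = 0.482). Cdk4 was -0.28 log2 (adjusted p = 0.420) and Ccnd3 -0.15 log2 (adjusted p = 0.691). These intervals are not adjusted for the number of genes.

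**Figure D3:**
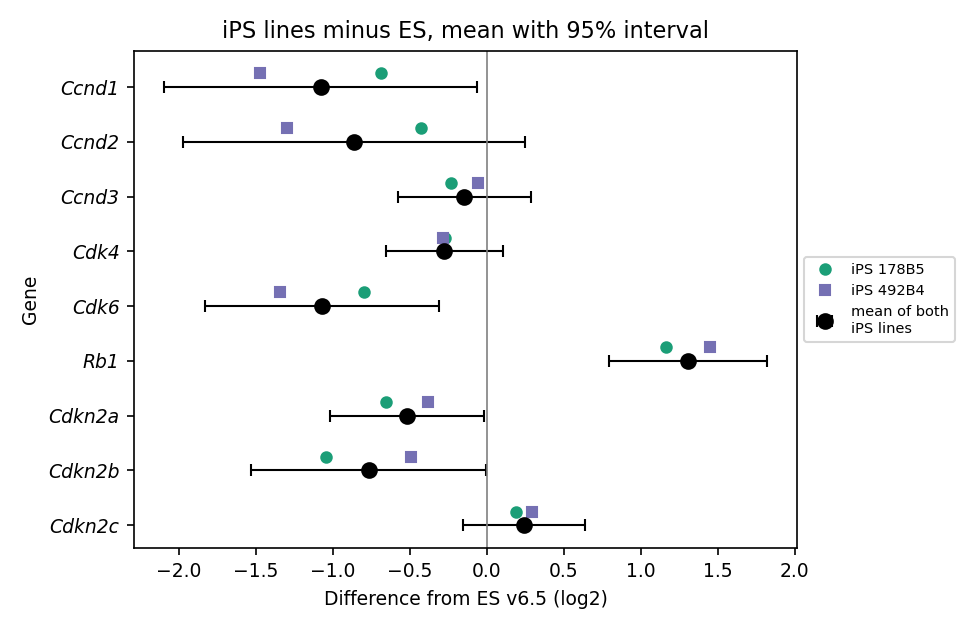
Differences from ES v6.5 in log2 for the 9 measured genes, with black circles for the mean of the 2 iPS lines, bars for limma's unadjusted 95% interval and coloured symbols for each line. Rb1 lies above 0 at 1.31 log2, Ccnd1 and Cdk6 lie near -1 log2, and 0 genes passed after adjustment.

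The 2 iPS lines were compared by value only, since each has 1 array. Ccnd2 was -0.87 log2 and Ccnd1 -0.78 log2 in iPS 492B4 minus iPS 178B5. Among all genes 1.09% differed between these lines by as much as Ccnd2 or more, and 1.72% by as much as Ccnd1 or more. Cdk6 was -0.54 log2 in the same difference, a size reached by 5.71% of genes. The measured INK4 genes of the set lay on the other side of 0, with Cdkn2b at 0.55 log2, Cdkn2a at 0.27 log2 and Cdkn2c at 0.10 log2. Differences as large or larger were found in 5.48% of genes for Cdkn2b, 24.4% for Cdkn2a and 62.7% for Cdkn2c. Rb1 was 0.29 log2, Ccnd3 0.17 log2 and Cdk4 -0.01 log2. The D cyclin genes Ccnd1 and Ccnd2 and the kinase gene Cdk6 were thus lower in iPS 492B4, and Cdkn2a, Cdkn2b and Cdkn2c lower in iPS 178B5.

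Ccnd1, Ccnd2 and Cdk6 had the same order over the arrays, with MEF highest, then ES, iPS 178B5 and iPS 492B4. This order held for 3 of the 9 genes, beside 18% of all genes. It also held for 12 of the 14 fibroblast markers, whose median difference from MEF was -4.17 log2 on iPS 178B5, -4.83 log2 on iPS 492B4 and -2.72 log2 on ES. In iPS minus ES the fibroblast markers had a median of -1.86 log2, and 13 of 14 were below 0. Col1a1, a main collagen of fibroblasts, was -4.93 log2 on iPS 178B5, -5.62 log2 on iPS 492B4 and -3.29 log2 on ES relative to MEF. The pluripotent cultures held SNL feeders, which are fibroblasts, and the part of fibroblast RNA in the order of Ccnd1, Ccnd2 and Cdk6 was not tested. Primitive endoderm markers moved in another direction, with a median of 1.83 log2 in iPS minus ES and 1 of 9 below 0, and their part in the iPS values, Rb1 included, was not tested.

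**Figure D4:**
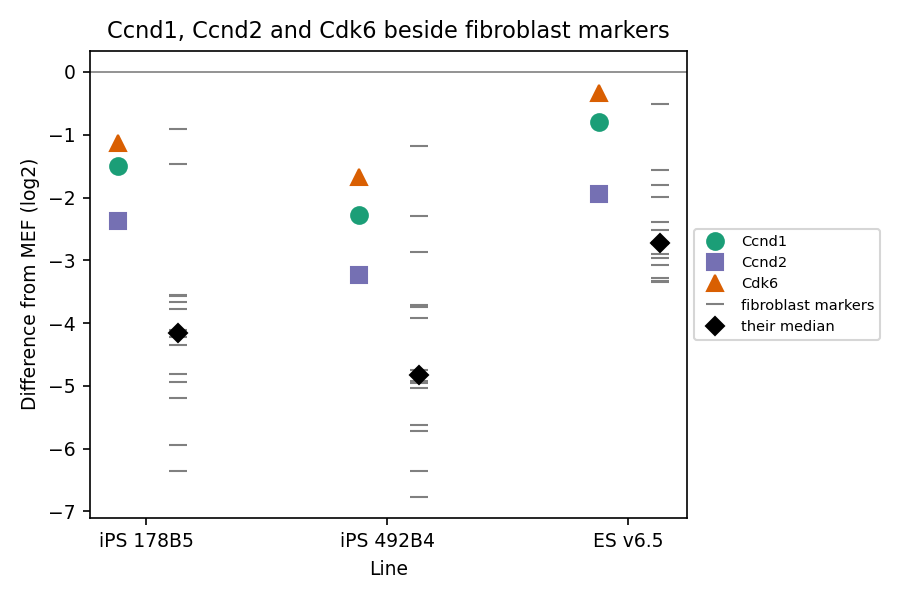
Differences from MEF in log2 on each pluripotent line for Ccnd1, Ccnd2 and Cdk6 (coloured symbols), beside the 14 measured fibroblast markers (grey dashes) and their median (black diamonds). The 3 genes and the marker median are lowest on iPS 492B4 and highest on ES.

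Genes with the most similar values over the 4 arrays were found by root mean square difference, for each measured gene that spanned at least 1 log2. Nearest to Ccnd2 were Cd44, a receptor for hyaluronan, at 0.117 log2 and Vcan, a matrix proteoglycan, at 0.119 log2. Nearest to Ccnd1 were Tmem47 (0.102 log2) and Srxn1 (0.136 log2), and nearest to Cdk6 were Zfp27 (0.0588 log2) and D17H6S56E-5 (0.0727 log2). Nearest to Cdkn2b were Cd47, a surface protein that restrains phagocytosis, at 0.0431 log2 and the interferon gamma receptor subunit gene Ifngr2 at 0.133 log2. Cdkn2a lay nearest to H13 (0.0465 log2) and Slc48a1 (0.0554 log2), and Cdkn2c to Cdc42ep2 (0.0600 log2) and Sorbs3 (0.0614 log2). Nearest to Rb1, with its low value on ES, were Serping1 (0.0674 log2) and Mybl1 (0.0853 log2).

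The genes that act after Rb in the pathway were mostly higher in the lines. E2F target genes, which build the replication machinery, rose in 16 of 21 cases and fell in 0, beside 7.9% of all genes called higher, and all 21 were above 0. Their median difference from MEF was 2.08 log2, beside -0.10 log2 for all genes. Mybl2, a transcription factor of proliferating cells, rose by 4.17 ± 0.20 log2 (SD, n = 3 lines). Cdt1, which loads the MCM helicase on origins, rose by 2.86 ± 0.10 log2, the checkpoint kinase gene Chek1 by 2.82 ± 0.18 log2 and the origin recognition gene Orc1 by 2.80 ± 0.07 log2. Of 18 target genes with a promoter in the RefSeq table, 8 held an E2F motif.

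Later cyclins and kinases rose in 5 of 10 cases, beside 7.9% of all genes called higher, with 0 lower and a median of 1.34 log2. Ccnb2, a mitotic cyclin, rose by 1.81 log2, the CDK-activating phosphatase gene Cdc25a by 1.71 log2 and Ccne1, the cyclin E1 gene, by 1.37 log2. Ccne2, the cyclin E2 gene, was not called (-0.38 log2), with both iPS lines below MEF and ES above it. Ccna2, the cyclin A2 gene, rose by 1.35 log2. With iPS 178B5 left out 2 were higher, and neither Ccne1 (1.45 log2, adjusted p = 0.104) nor Ccna2 (1.35 log2, adjusted p = 0.0543) was called. Ccne1 was also not called without iPS 492B4 (1.49 log2, adjusted p = 0.0601) or with reference gene centring (1.08 log2, adjusted p = 0.0597).

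The E2F factors and Rb relatives themselves had 2 of 12 higher and 1 lower, beside 7.9% and 9.71% of all genes. Their median was 0.32 log2. E2f4, a mainly repressive E2F, rose by 1.19 log2 and Tfdp2, a dimerisation partner of E2F proteins, by 1.01 log2, while E2f6, a repressor that does not bind Rb, fell by 1.24 log2. With iPS 178B5 left out none of these was called, with adjusted p of 0.0991 for E2f4, 0.106 for Tfdp2 and 0.0553 for E2f6. Tfdp2 was under the fold minimum without iPS 492B4 (0.90 log2), and with reference gene centring E2f4 (0.91 log2) and Tfdp2 (0.73 log2) were not called.

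**Figure D5:**
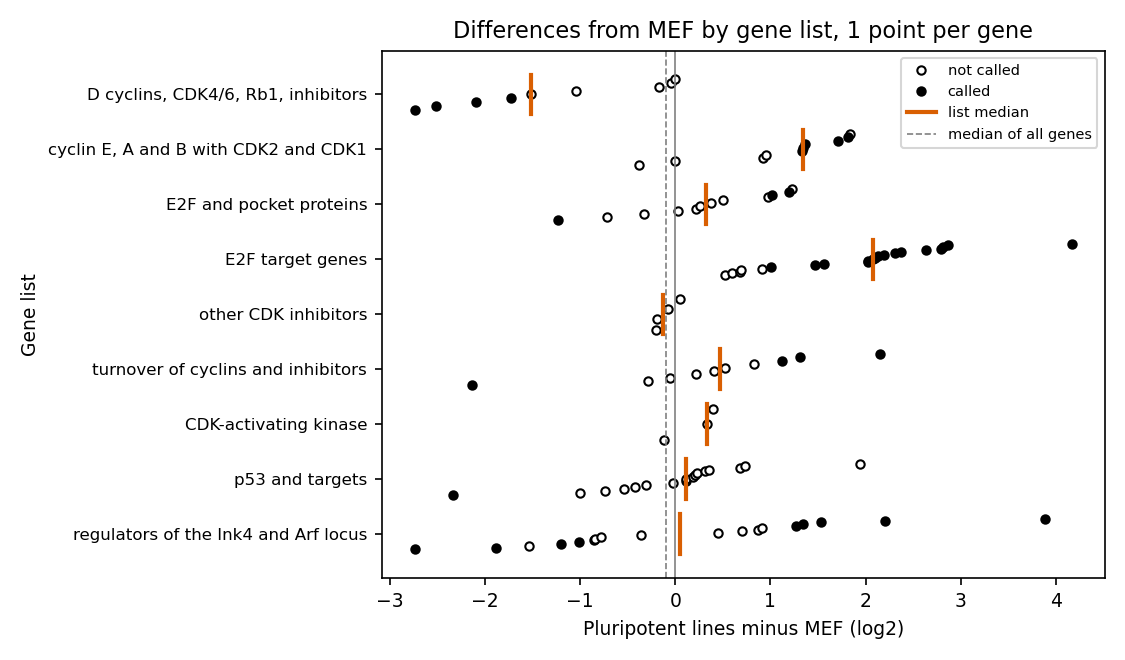
Differences from MEF in log2, as the mean of the 3 pluripotent lines, for each measured gene of the set and of 8 lists of related genes. Filled points passed limma's test and the fold minimum, orange bars are list medians, and the dashed line is the median of all genes at -0.10 log2; the list median is -1.52 log2 for the D cyclins, kinases, Rb1 and inhibitors and 2.08 log2 for E2F targets.

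Genes for the turnover of cyclins and inhibitors had 3 of 10 higher and 1 lower, beside 7.9% and 9.71% of all genes. Their median was 0.47 log2. Fbxo5, an inhibitor of the anaphase-promoting complex, rose by 2.15 log2, Skp2, which targets p27 for destruction, by 1.32 log2 and Cks2 by 1.13 log2. Fbxo4, an F-box protein known to act on cyclin D1, fell by 2.13 log2, with the lines within 0.01 log2 of each other. Without iPS 178B5 1 was higher and 1 lower, with adjusted p of 0.0794 for Skp2 and 0.0678 for Cks2. Skp2 was also not called without iPS 492B4 (adjusted p = 0.0663) or with reference gene centring (adjusted p = 0.0501), under which Cks2 stood at 0.84 log2. The CDK-activating kinase genes Cdk7, Ccnh and Mnat1 had 0 of 3 called by limma and 0 at an unadjusted p under 0.05, with differences between -0.12 and 0.40 log2.

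Regulators of the Cdkn2a and Cdkn2b locus moved in both directions, with 5 of 18 higher and 4 lower, beside 7.9% and 9.71% of all genes. Their median was 0.05 log2. The Polycomb genes Cbx7, Suz12 and Ezh2, whose products silence the locus in other cells, rose by 3.89, 2.20 and 1.53 log2, and the demethylase gene Kdm2b rose by 1.34 log2. The Polycomb gene Bmi1, a known repressor of the same locus, fell by 1.88 log2. Twist1 fell by 2.74 log2, Ets1, an activator of p16Ink4a, by 1.20 log2 and Zbtb7a, a repressor of Arf, by 1.01 log2. Without iPS 178B5 the counts were 2 higher and 1 lower, and Suz12 (adjusted p = 0.0839), Kdm2b (0.0691), Bmi1 (0.0622), Ets1 (0.0562) and Zbtb7a (0.0870) were not called. Ets1 (adjusted p = 0.0805) and Zbtb7a (-0.97 log2) were not called without iPS 492B4, nor was Zbtb7a with equal array medians (-0.93 log2). With reference gene centring 4 were higher and 8 lower, and the list median was -0.23 log2.

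The p53 list had 0 of 17 measured genes higher and 1 lower, beside 7.9% and 9.71% of all genes, with a median of 0.11 log2. By limma's unadjusted p under 0.05 it had 4 genes, 2 of them higher and the rest lower. Fas, a death receptor gene, fell by 2.34 ± 0.15 log2 (SD, n = 3 lines). Without ES 2 were higher and 1 lower, and with reference gene centring 2 were lower and the median was -0.17 log2.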

How the data were processed

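Per the submitters' processing notes the deposited values came from GCRMA of a version that no label states. For all samples the authors deposited 1 table of 28853 probe sets on a log scale, and the log2 base was taken from the range of the values. The median of every probe set over the 4 arrays was 0 within 1e-06, so the table held differences and no levels, and no filter on dim probe sets was possible. Probe sets with 1 symbol (21789) were averaged per gene, which gave 19938 genes. Symbols were checked against the gene table of assembly GRCm38.p6, with 0 changed.

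Tests used limma 3.58.1 (R 4.3.3), first for 2 groups (3 lines against MEF, 2 residual degrees of freedom) and then for 3 groups (1 residual degree of freedom). The number of arrays limits the precision. The script was tested on simulated data, where the test against MEF missed part of the changed genes. The test of iPS against ES recovered no changed gene there, so a gene not called is not shown to be unchanged. Alternatives were array centring, probe set rule, robust moderation, fold minimum, a 3-group mean and leaving out each line. The genes and lists were chosen with earlier results of these data known. Up to 4 called genes per direction were named from each of the 8 lists of related genes, the largest first. Cell type markers were named as examples, not by this rule. The 2 nearest patterns were named for each measured gene that spanned at least 1 log2. Promoters came from RefSeq.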

Additional observations from a re-analysis of the deposited data

Results flagged for a closer look

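Rb1 lay on opposite sides of MEF in the iPS lines and in ES, while Cdk4 in ES was level with MEF. With reference gene centring Cdk4 was below MEF in both, at -0.55 log2 in iPS minus MEF and -0.27 log2 in ES minus MEF. Rb1 was above MEF on both iPS arrays and below it on the ES array, at 1.31 log2 in iPS minus ES (limma adjusted p = 0.138). Cdk4 was below MEF on both iPS arrays and 0.0089 log2 above it on ES, at -0.28 log2 in iPS minus ES (limma adjusted p = 0.420). Neither difference passed after adjustment.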

How the results depend on the processing

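The falls of Cdkn2b and Cdkn2c remained called under each of the 10 alternatives for the 3 lines against MEF. That of Ccnd2 remained called under all but the one without iPS 178B5, and that of Cdkn2a under all but those without either iPS line. Not all alternatives could change these calls. Each of these genes has 1 probe set, so the probe set rules left its difference unchanged. Dropping the fold minimum cannot lose a call. Leaving out a line gave 1357 to 4216 genes called and 2 to 6 of the 9 genes called. The difference of Ccnd3 changed sign with equal array medians (0.069 log2) and in the 3-group mean (0.019 log2), and ranged from -0.053 to 0.061 log2 when a line was left out. That of Rb1 was 0.024 log2 with equal array medians and ranged from -0.34 to 0.39 log2 when a line was left out. Ccnd1 ranged from -1.88 to -1.15 log2, Cdk6 from -1.40 to -0.73 log2, Ccnd2 from -2.80 to -2.15 log2 and Cdkn2a from -1.89 to -1.57 log2. For iPS minus ES 44 genes were called with equal array medians and 55 with reference gene centring, against 0 as deposited, and the cause was not tested. For iPS minus MEF 6627 genes were called with no fold minimum, which admits smaller differences. Without an iPS line the 3-group fit has no residual degrees of freedom and gives no test, and MEF could not be left out. No paired analysis was possible with 1 array for each culture. Without background or detection values, signal near background could not be told from low expression.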
